A study of Homo sapiens with 44 samples.

Results

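Chromatin accessibility was compared between Ccd18-Co colon fibroblasts stimulated with TGF-β1 at 10 ng/ml and unstimulated Ccd18-Co cells, by ATAC-seq (a transposase cuts accessible DNA and the cut fragments are sequenced). The members were the 4 libraries labelled TGFB1 and the 4 labelled unstimulated, taken from the library numbers in the labels, and made up 8 of the 44 libraries of the series. The other 36 libraries were cells given 1 of 9 other cytokines and served as a second reference and for the estimate of spread. These were IL-1β, IL-6, IL-13, IL-17A, IL-22, interferon α, interferon γ, TNF and oncostatin M. IL-1β was given at a lower dose, and the others at 10 ng/ml like TGF-β1. Ccd18-Co is a single fibroblast line derived from human colon, used up to passage 20, so all 44 libraries share 1 genetic background. By the study's methods both groups were kept without serum for 72 h before 24 h of stimulation. The treatment label for this series names no starvation. The labels call the 4 libraries of a group replicates without saying that they came from separate cultures, so p-values measure the spread between these libraries, which may be technical. The question was which open chromatin peaks gain or lose accessibility with TGF-β1 in a colon fibroblast, at which genes they lie, and what their sequences have in common.

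TGF-β1 binds a type II receptor serine kinase (TGFBR2), which activates the type I receptor TGFBR1. The receptor pair phosphorylates SMAD2 and SMAD3, which join SMAD4 and enter the nucleus, where they bind short DNA elements weakly and act with other factors, AP-1 among them. In fibroblasts the pathway is known for driving the contractile, matrix-producing myofibroblast state of wound repair and fibrosis. SMAD7, SKI and SKIL restrain it.

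The sequences below are windows of 120 bases (plus strand, hg38) inside peaks that gained or lost accessibility. They show strings whose frequency in raised and lowered peaks is described below. In the raised peaks capitals mark GTCTAGAC, the palindrome formed by a pair of SMAD-binding GTCT elements, and TGANTCA, the AP-1 element (CDK14). These raised peaks hold the palindrome and are among the largest changes or, for TGFBI, lie in a long stretch of raised peaks.
CDK14 (chr7:90579408-90579527): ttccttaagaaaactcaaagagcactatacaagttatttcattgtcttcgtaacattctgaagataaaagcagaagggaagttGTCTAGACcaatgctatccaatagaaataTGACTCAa
ITGB1 (chr10:32992950-32993069): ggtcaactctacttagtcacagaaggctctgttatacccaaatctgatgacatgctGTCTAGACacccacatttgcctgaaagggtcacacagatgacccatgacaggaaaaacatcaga
TNFSF4 (chr1:173329870-173329989): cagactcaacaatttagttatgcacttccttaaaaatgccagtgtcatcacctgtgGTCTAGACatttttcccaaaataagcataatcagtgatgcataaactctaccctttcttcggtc
GALNT15 (chr3:16067010-16067129): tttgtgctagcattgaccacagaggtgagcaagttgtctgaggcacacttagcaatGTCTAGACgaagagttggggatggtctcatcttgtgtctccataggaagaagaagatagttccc
BDKRB2 (chr14:96141123-96141242): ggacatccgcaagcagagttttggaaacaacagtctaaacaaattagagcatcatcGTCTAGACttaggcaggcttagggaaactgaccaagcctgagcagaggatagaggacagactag
TGFBI (chr5:135996105-135996224): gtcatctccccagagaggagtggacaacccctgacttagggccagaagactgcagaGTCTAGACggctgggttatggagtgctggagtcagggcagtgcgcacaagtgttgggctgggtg

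In the lowered peaks capitals mark TGTTTAC, the core element of forkhead (FOX) factors, and TTGCNNAA, the C/EBP element, each on either strand. These windows are shown because both strings were more frequent in lowered than in raised peaks.
PDK4 (chr7:95590667-95590786): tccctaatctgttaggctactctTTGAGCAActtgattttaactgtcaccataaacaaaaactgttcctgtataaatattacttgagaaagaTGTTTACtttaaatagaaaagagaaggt
ENTPD1 (chr10:95772173-95772292): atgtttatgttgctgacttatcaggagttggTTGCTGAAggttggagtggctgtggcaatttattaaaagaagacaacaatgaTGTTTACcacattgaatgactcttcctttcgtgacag
BANF2 (chr20:17759586-17759705): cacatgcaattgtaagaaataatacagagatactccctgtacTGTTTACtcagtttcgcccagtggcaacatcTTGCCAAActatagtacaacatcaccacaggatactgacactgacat
CDC42EP3 (chr2:37757639-37757758): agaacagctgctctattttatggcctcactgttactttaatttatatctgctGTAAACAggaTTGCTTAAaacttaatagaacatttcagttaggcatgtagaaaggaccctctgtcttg

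Coverage is given below as coverage per Mb, the read coverage summed over a peak relative to the library's coverage over all peaks in megabases (Mb), after a trimmed-mean composition factor. All changes are differences of log2(coverage per Mb + 0.5), which understate the change of peaks with low coverage. TGF-β1 libraries held 318.5, 440.4, 351.1 and 590.8 Mb of coverage and unstimulated libraries 411.8, 391.8, 328.6 and 524.4 Mb, so depth overlapped between the groups. TGF-β1 coverage was spread more evenly over the peaks. The top 1% of peaks by coverage took up 12.49 ± 0.532% of the coverage with TGF-β1 and 14.3 ± 0.374% without (SD, n = 4 each, exact permutation test, two-sided, p = 0.0286, adjusted 0.0429 over 3 measures). Promoter-class peaks held 17.8 ± 0.531% against 20.3 ± 0.225% (exact permutation p = 0.0286, adjusted 0.0429). This is the smallest p that 70 arrangements of 8 libraries can give. Peaks with no coverage were 4.44 ± 3.12% against 7.52 ± 3.03%, with overlapping groups (exact permutation p = 0.2).

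The direction of calls depended on the scaling. Across 407174 tested peaks the median change went from 0.17 in the lowest of 10 equal bins of mean coverage to -0.28 in the highest. Scaling by library totals gave 0.22 and -0.16 for the same bins. Offsets fitted by loess against mean accessibility, which remove such a trend within each library, left all 10 bins between -0.02 and 0.00. Trimmed-mean scaling called 4487 peaks raised and 11693 lowered (27.7% raised), library totals 6985 and 7629 (47.8% raised), and loess offsets 6320 and 4349 (59.2% raised), by limma at a Benjamini-Hochberg adjusted p under 0.05. No peak was called in opposite directions by any of the 3. The results below rest on peaks called in the same direction under all 3 scalings, and their values are those of the trimmed mean. The median change of all tested peaks was 0.05 on that scale, 0.12 with library totals and -0.01 with loess offsets.

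**Figure D1:**
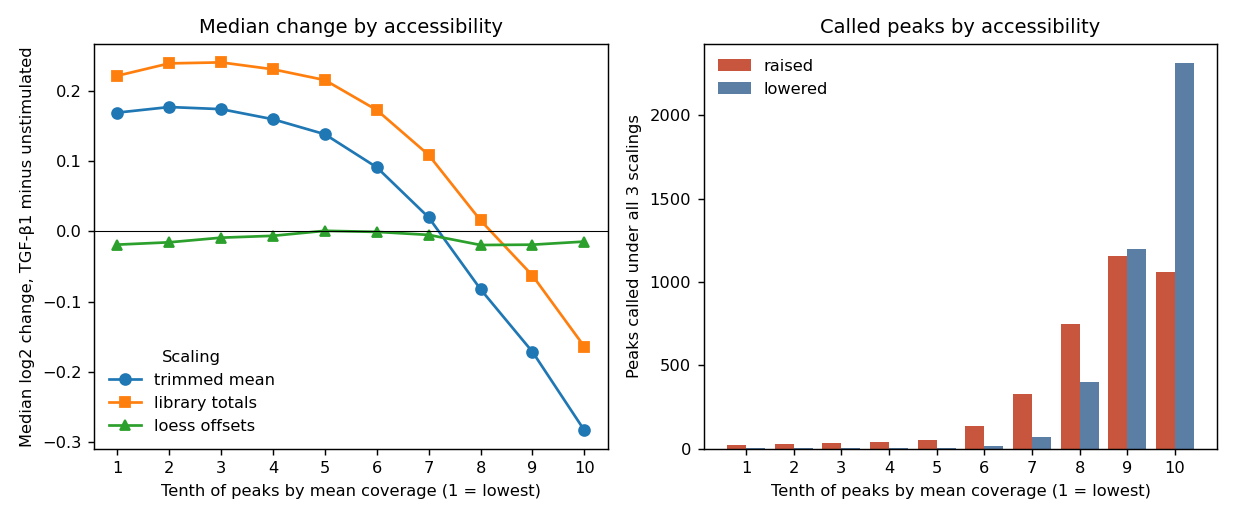
Median log2 change (TGF-β1 minus unstimulated) of the tested peaks in 10 equal bins of mean coverage, under the 3 scalings, with the number of peaks called raised or lowered under all 3 in each bin (bars). With the trimmed mean the median falls from 0.17 to -0.28, and with loess offsets it stays within -0.02 and 0.00.

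Under all 3 scalings 3603 peaks were raised with TGF-β1 (0.885% of those tested) and 4022 were lowered (0.988%). The median change was 1.13 for raised and -1.09 for lowered peaks. The largest changes were gains: 97 raised peaks and 16 lowered peaks changed by at least 4-fold on this scale. Raised peaks lay a median of 24.1 kb from the nearest annotated transcript start of a protein-coding gene, lowered peaks 13.3 kb and all tested peaks 14.5 kb. Distances in kb to a start are given below to such transcript starts, which can lie inside a gene. By the deposited classes, 1453 raised peaks were distal (1.03% of tested distal peaks), 1923 intronic (0.914%), 129 exonic (0.472%) and 98 in promoters (0.337%). Lowered peaks were about equally frequent in each class, with 1403 distal (0.999%), 2023 intronic (0.962%), 280 exonic (1.02%) and 316 promoter peaks (1.09%). Of the 15706 tested peaks at the start site of a protein-coding gene, 34 were raised (0.216%) and 198 lowered (1.26%). The median change of these start-site peaks was -0.27, -0.16 with library totals and -0.05 with loess offsets. Calls were rare among peaks with little coverage, with 23 raised and 4 lowered in the lowest of the 10 coverage bins against 1058 (2.60%) and 2313 (5.68%) in the highest. Without TGF-β1 replicate 1 the raised peaks fell to 2400, and the lowered peaks to 2959.

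Peaks are named here for the size of their change, and at those with the largest gains described here no unstimulated library had more than 4.35 per Mb, while the TGF-β1 libraries had 3.96 to 19.2. The rule for naming required all 4 libraries of a group to lie on one side of the other group, which over all tested peaks occurred in 3.81% upward and 5.02% downward. An intron of NOTCH2, a cell-surface receptor that signals between neighboring cells, held a peak (chr1:119965864-119966364, labelled ADAM30) with 8.80, 10.4, 17.2 and 8.0 per Mb against 2.43, 1.32, 0.764 and 0.402 (change 2.82 ± 0.37, SE, limma adjusted p = 2.59e-10). An intron of ANTXR1, a collagen-binding surface protein also known as an anthrax toxin receptor, held one (chr2:69225990-69226490, labelled MIR3126) with 12.4, 10.7, 8.80 and 8.64 against 2.64, 0.187, 0.982 and 1.17 (2.80 ± 0.36, adjusted p = 3.16e-10). At both peaks the group means of the 9 other cytokines stayed at or below 2.11 per Mb.

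CDK14, a cyclin-dependent kinase, carried in its intron 1 of the 59 raised peaks that hold both the SMAD palindrome and the AP-1 string (chr7:90579027-90579527). Its coverage was 18.7, 16.8, 19.2 and 13.7 per Mb with TGF-β1 and 2.39, 2.59, 2.13 and 1.91 without (2.67 ± 0.28, adjusted p = 1.09e-15). ITGB1, the integrin β1 subunit through which fibroblasts hold collagen and fibronectin, had a raised intronic peak 0.528 kb from an annotated transcript start (chr10:32992741-32993241). It had 8.74, 3.96, 4.77 and 4.73 against 0.356, 0.217, 0.751 and 0.402 (2.67 ± 0.39, adjusted p = 2.96e-08). The intergenic peak labelled TNFSF4, the gene of the T cell costimulator OX40 ligand, lay 123 kb from the nearest start (chr1:173329678-173330178) and had 14.0, 8.68, 8.93 and 9.37 against 2.80, 0.397, 2.71 and 0.469 (2.60 ± 0.34, adjusted p = 2.28e-10). In ITGB1 and TNFSF4, TGF-β1 replicate 1 stood above its 3 fellow libraries. A further 4 were an intergenic peak labelled ICE1 (2.71 ± 0.26), peaks in introns of ZNF254 (2.66 ± 0.33) and CACHD1 (2.61 ± 0.31), and an intergenic peak labelled LINC01338 (2.61 ± 0.36). At ZNF254 the TNF libraries also had a mean of 5.74 per Mb, against 7.49 ± 2.90 with TGF-β1 and 0.826 ± 0.601 unstimulated.

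**Figure D2:**
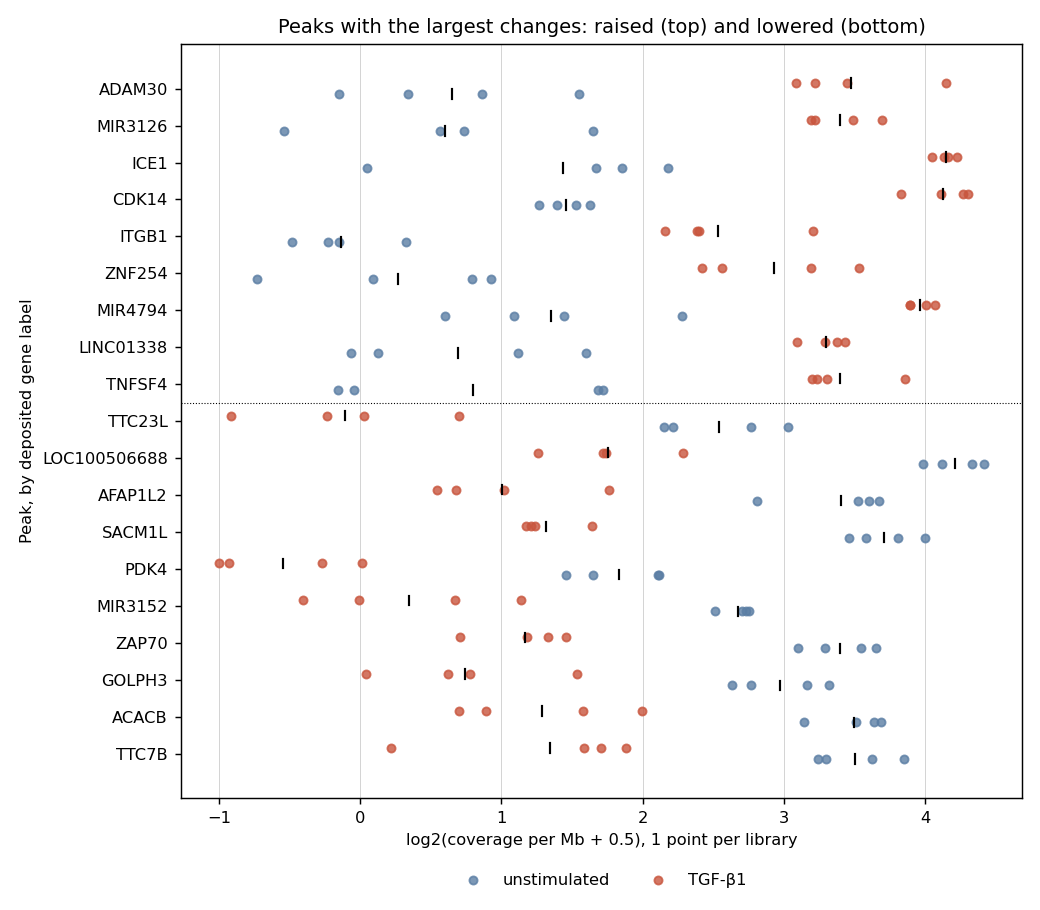
log2(coverage per Mb + 0.5) of each of the 8 libraries at raised and lowered peaks with the largest change; points are libraries, black ticks the mean of their log values, and the dotted line divides raised from lowered peaks. By the rule that chose them, the groups do not overlap at any of these peaks.

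The peaks with the largest losses fell to a few per Mb or less. The largest loss was at an intergenic peak labelled TTC23L (chr5:34833927-34834427), with 0.0295, 1.12, 0.352 and 0.518 per Mb in TGF-β1 libraries and 7.68, 4.15, 3.94 and 6.31 in unstimulated ones (-2.65 ± 0.26, adjusted p = 5.35e-17). At PDK4, the kinase that shuts off pyruvate dehydrogenase and spares glucose, an intronic peak lay 0.909 kb from an annotated transcript start (chr7:95590376-95590876). It had 0, 0.507, 0.0259 and 0.327 against 2.63, 2.24, 3.83 and 3.81 (-2.38 ± 0.34, adjusted p = 1.27e-08). This peak carries the FOX and C/EBP strings shown above. An intron of ACACB, the mitochondrial form of acetyl-CoA carboxylase, had 2.48, 1.35, 1.13 and 3.48 against 8.33, 12.4, 10.9 and 11.9 (-2.20 ± 0.22, adjusted p = 4.84e-17). Both genes regulate fuel use in the mitochondrion.

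A peak over an exon of RPS6KA5, a stress- and mitogen-activated kinase, lay 0.062 kb from an annotated transcript start of the gene (chr14:90911157-90911657, labelled TTC7B). It had 0.662, 2.76, 3.19 and 2.50 per Mb with TGF-β1 against 9.35, 11.8, 14.0 and 8.95 without (-2.16 ± 0.21, adjusted p = 1.33e-17). A promoter-class peak labelled LOC100506688 (chr5:998657-999157) had 1.90, 4.38, 2.85 and 2.79 against 20.9, 19.6, 16.9 and 15.3 (-2.46 ± 0.19, adjusted p = 4.54e-26). An intron of LIMD1 (labelled SACM1L) had 1.76, 2.62, 1.82 and 1.86 against 11.5, 13.5, 15.5 and 10.5 (-2.40 ± 0.21, adjusted p = 3.53e-20). At the LIMD1 peak the IL-1β mean was also low, at 2.67 per Mb, while the IL-13 mean was 16.8. The other 4 were in introns of AFAP1L2 (-2.40 ± 0.24) and ADAMTSL1 (-2.33 ± 0.26) and at intergenic peaks labelled ZAP70 (-2.23 ± 0.22) and GOLPH3 (-2.22 ± 0.25).

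Among 23384 gene labels of the deposited peaks, 2568 had a raised peak, 2912 a lowered peak and 630 both. TGFBI, which encodes a secreted matrix protein named for its induction by TGF-β, had 11 raised and 1 lowered of 36. DGKI had 9 of 65 (several inside CREB3L2), and ZNF365 (8 of 52), SERPINE2 (8 of 64) and PALLD (8 of 96) had 8 each. Of all tested peaks 0.885% were raised. SERPINE2 encodes an inhibitor of extracellular serine proteases, and PALLD the actin cross-linker palladin. Without 1 library at a time TGFBI had 8 to 11 raised peaks, while PALLD dropped to 4 and SERPINE2 to 5 without TGF-β1 replicate 1, and DGKI to 4 without unstimulated replicate 1.

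Some raised peaks lay in runs, chains in which neighbors lie within 12500 bases. A run at TGFBI held 11 raised of 31 tested peaks over 48.0 kb (chr5:135996026-136043995), 8 of them intergenic upstream of TGFBI and 3 in its introns. Its first peak (chr5:135996026-135996526), 32.7 kb from the TGFBI start and the one with the SMAD palindrome shown above, had 3.81, 8.05, 8.09 and 5.99 against 1.34, 1.17, 0.600 and 0.952 (2.18 ± 0.35, adjusted p = 5.55e-07).

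A run on chromosome 10 held 6 raised of 7 tested peaks within 7.19 kb (chr10:62577560-62584751) labelled ZNF365, all in introns of the long noncoding gene LINC02929. One of them (chr10:62577560-62578060) had 12.4, 10.9, 8.27 and 10.3 per Mb against 3.11, 2.39, 0.676 and 0.512 (2.53 ± 0.32, adjusted p = 5.14e-11). Another (chr10:62584251-62584751) had 35.3, 31.1, 29.3 and 24.3 against 6.77, 8.42, 7.90 and 7.97 (1.88 ± 0.17, adjusted p = 3.53e-20). The TNF libraries reached a mean of 30.7 per Mb at that second peak. Most raised peaks stood alone: the 3603 peaks fell into 3182 runs, of which 2853 were single peaks and 53 held 3 or more.

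The label with the most lowered peaks was ADAMTS1, a secreted metalloprotease that cleaves versican and other proteoglycans. It had 13 lowered and 1 raised of 76 tested peaks, and the 13 formed the lowered run with the most called peaks, 13 of 19 tested peaks over 12.8 kb (chr21:26834117-26846933), of which 9 lay on exons of the gene, with changes between -0.98 and -1.97. In this run the largest loss was at a peak over an exon, 0.099 kb from an annotated transcript start (chr21:26841362-26841862). It had 0.662, 1.11, 0.194 and 0.985 per Mb with TGF-β1 and 5.09, 4.38, 3.85 and 3.27 without (-1.97 ± 0.28, adjusted p = 7.88e-09). The smallest loss of the run, -0.98 ± 0.21, was at a promoter-class peak 0.516 kb from an annotated transcript start (chr21:26845675-26846175). Next among lowered labels came ZFP36L1, an mRNA decay factor (12 of 309), and IGFBP5, an insulin-like growth factor binding protein (10 of 72, with 1 raised). KLF9, a zinc finger factor known for its response to glucocorticoids, had 10 of 141, with 1 raised. MALAT1, a nuclear noncoding RNA, had 9 of 46, and MIR4422 had 9 of 185, with 2 raised. Of all tested peaks 0.988% were lowered.

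A peak labelled ZFP36L1 (chr14:68787025-68787525) had 6.16, 6.55, 4.46 and 4.58 per Mb against 15.6, 16.1, 15.7 and 15.6 (-1.47 ± 0.18, adjusted p = 7.05e-12), and the unstimulated libraries were almost equal to each other. A KLF9 peak (chr9:70408371-70408871) had 0.437, 2.18, 0.30 and 0.626 against 4.28, 3.77, 3.24 and 4.89 (-1.88 ± 0.31). The MALAT1 run held 9 lowered of 26 tested peaks over 20.5 kb (chr11:65487444-65507973), 7 of them on exons of the transcript, and one of these averaged 12.8 ± 1.86 against 29.9 ± 3.71 (-1.19 ± 0.13, adjusted p = 2.41e-13). The IGFBP5 run held 9 of 25 over 22.8 kb (chr2:216671294-216694086), mostly in the introns of the gene. When 1 library at a time was left out, the ADAMTS1 label had 12 to 14 lowered peaks, ZFP36L1 9 to 11 and MALAT1 6 to 9. IGFBP5 had 6 to 10 (6 without unstimulated replicate 2), KLF9 3 to 7 (3 without TGF-β1 replicate 3) and MIR4422 4 to 7 (4 without unstimulated replicate 3 or 4).

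The genes of the pathway itself were read from lists grouped by role, as the peaks labelled with each gene. Of 612 peaks at 15 genes for ligands and their storage, 9 were raised (1.47%) and 12 lowered (1.96%), beside 0.885% raised and 0.988% lowered of all tested peaks, and the median change was 0.00. With 1 library left out the list had 4 to 9 raised (4 without unstimulated replicate 3) and 6 to 15 lowered (6 without TGF-β1 replicate 1). An intronic peak of TGFB2, a second TGF-β ligand (chr1:218374880-218375380), rose from 1.41, 2.77, 2.03 and 1.25 per Mb to 14.0, 8.39, 8.10 and 7.97 (2.10 ± 0.34, adjusted p = 6.38e-07). INHBA, the activin A subunit, had a raised distal peak (7.35 ± 1.25 against 2.63 ± 1.07 per Mb, n = 4 each, change 1.40 ± 0.27, adjusted p = 5.02e-05), at which the TNF mean was 8.38. LTBP2, a latent TGF-β binding protein of the matrix, had 5 lowered and 2 raised of 59. No peak of the TGFB1 gene was called (5 tested).

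Of 664 peaks at 11 receptor genes 9 were raised (1.36%) and 7 lowered (1.05%), both near the shares of all tested peaks (0.885% and 0.988%). With 1 library left out 5 to 7 were raised and 5 to 9 lowered, and without TGF-β1 replicate 1 the balance turned to 5 raised and 9 lowered. TGFBR1, the type I receptor, was the one receptor gene whose start-site peak was raised (chr9:99103856-99104356), with 16.8, 11.8, 13.6 and 9.23 per Mb against 6.07, 6.50, 6.44 and 6.49 (0.93 ± 0.22, adjusted p = 0.00207). Its neighbor 0.828 kb from the start had 7.13, 7.84, 8.92 and 5.08 against 1.5, 4.53, 3.74 and 2.37 (1.19 ± 0.31, adjusted p = 0.00722). Groups did not overlap at either peak. An intronic peak of ACVR1, an activin and BMP receptor, averaged 3.54 ± 1.66 against 0.352 ± 0.123 (2.13 ± 0.39, adjusted p = 2.18e-05). TGFBR2 had 2 raised of 181 tested peaks, and TGFBR3, the coreceptor betaglycan, had 3 lowered and none raised of 109.

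Of 291 peaks at 6 SMAD genes none was raised and 5 were lowered (1.72%), 4 of them at SMAD3 (of 139 tested), beside 0.885% raised and 0.988% lowered of all tested peaks. The lowered count was 2 without TGF-β1 replicate 1 and 2 to 6 over all omissions. SMAD9, a SMAD of the BMP branch, had the largest loss, at an intronic peak with 12.9, 8.85, 7.18 and 9.84 per Mb against 24.0, 24.5, 24.2 and 18.5 (-1.21 ± 0.15, adjusted p = 1.11e-11). Of 775 peaks at 16 genes for inhibitors and repressors 11 were raised (1.42%) and 10 lowered (1.29%), against 0.885% and 0.988% of all tested peaks. SMAD7, the inhibitory SMAD that brings ubiquitin ligases to the receptor, had the most raised peaks of this list (4 of 124, none lowered). Its intronic peak (chr18:48938638-48939138) had 8.13, 4.24, 2.84 and 3.28 against 0.877, 1.05, 1.13 and 1.58 (1.54 ± 0.35, adjusted p = 0.00145). SMAD6, SMURF1 and DCN had 2 lowered peaks each. No peak was called at SKIL (27 tested) or BAMBI (18 tested).

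The list of early TGF-β target genes had the highest share of raised peaks of the 10 lists, 43 of 763 (5.64%, beside 0.885% of all tested peaks), with 11 lowered (1.44%) and a median change of 0.11, 0.21 with library totals and 0.11 with loess offsets. TGFBI held 11 of the 43. IL11, a cytokine made by activated fibroblasts, had a raised peak 2.48 kb from the nearest start with 15.3, 9.06, 9.26 and 14.7 per Mb against 5.07, 4.88, 3.61 and 5.63 (1.22 ± 0.23, adjusted p = 2.49e-05), and the IL-1β mean there was 16.7. CCN1, a matricellular target of both TGF-β and YAP, had 5 lowered and 1 raised of 50. No peak was called at CCN2 (53 tested), JUNB (4) or ID1 (12). The list held 32 to 41 raised and 7 to 12 lowered peaks when 1 library at a time was left out.

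Of 868 peaks at 22 contractile genes 21 were raised (2.42%) and 13 lowered (1.5%), beside 0.885% raised and 0.988% lowered of all tested peaks. PALLD held 8 of the 21. Without TGF-β1 replicate 1 these counts fell to 10 and 8. A pair of adjoining raised peaks labelled SRF, the factor that switches on actin genes, lay in an intron of PTK7. The first (chr6:43125075-43125575) had 21.7, 16.4, 17.1 and 13.7 per Mb against 3.52, 2.58, 3.92 and 4.60 (2.10 ± 0.25, adjusted p = 1.56e-12), and the next (chr6:43125581-43126081) had 8.99, 7.39, 8.87 and 6.44 against 1.31, 0.751, 1.56 and 1.63 (2.24 ± 0.34, adjusted p = 1.19e-07). The peak 0.753 kb from the SRF start moved the other way, with 10.3, 6.82, 6.76 and 8.81 against 17.4, 18.5, 18.7 and 13.5 (-1.03 ± 0.17, adjusted p = 3.34e-06). It did not count as the start-site peak of SRF, and no start-site peak of a contractile gene was called. VCL, the adhesion protein vinculin, had 4 lowered and no raised of 52. No peak was called at ACTA2, the smooth muscle actin that marks myofibroblasts (12 tested), and its start-site peak averaged 6.48 against 9.58 per Mb (-0.53 ± 0.21, adjusted p = 0.151).

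Matrix genes had 28 raised (1.62%) and 18 lowered (1.04%) of 1730 peaks at 30 genes, beside 0.885% raised and 0.988% lowered of all tested peaks. COL6A3, a chain of the microfibril-forming collagen VI, had both directions, 4 raised and 5 lowered of 142. An upstream peak (chr2:237432618-237433118) had 41.5, 33.3, 35.1 and 32.1 per Mb against 12.7, 12.9, 17.3 and 13.7 (1.30 ± 0.15, adjusted p = 3.02e-12), and an exonic one (chr2:237326272-237326772) had 5.28, 6.77, 7.03 and 5.28 against 15.8, 16.7, 18.4 and 17.4 (-1.42 ± 0.17, adjusted p = 4.86e-12). COL6A1, another chain of the same collagen, had 5 lowered and no raised of 70. An intronic peak of ADAM12, a metalloprotease of activated stromal cells, averaged 22.8 ± 3.00 against 7.64 ± 2.68 (1.56 ± 0.19, adjusted p = 1.70e-11), and the TNF mean there was 25.5. No peak was called at COL1A1 (29 tested), COL1A2 (77), COL3A1 (25), FN1 (20) or POSTN (23), genes for the main fibrillar collagens, fibronectin and periostin. Their start-site peaks changed by -0.27 to 0.15.

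**Figure D3:**
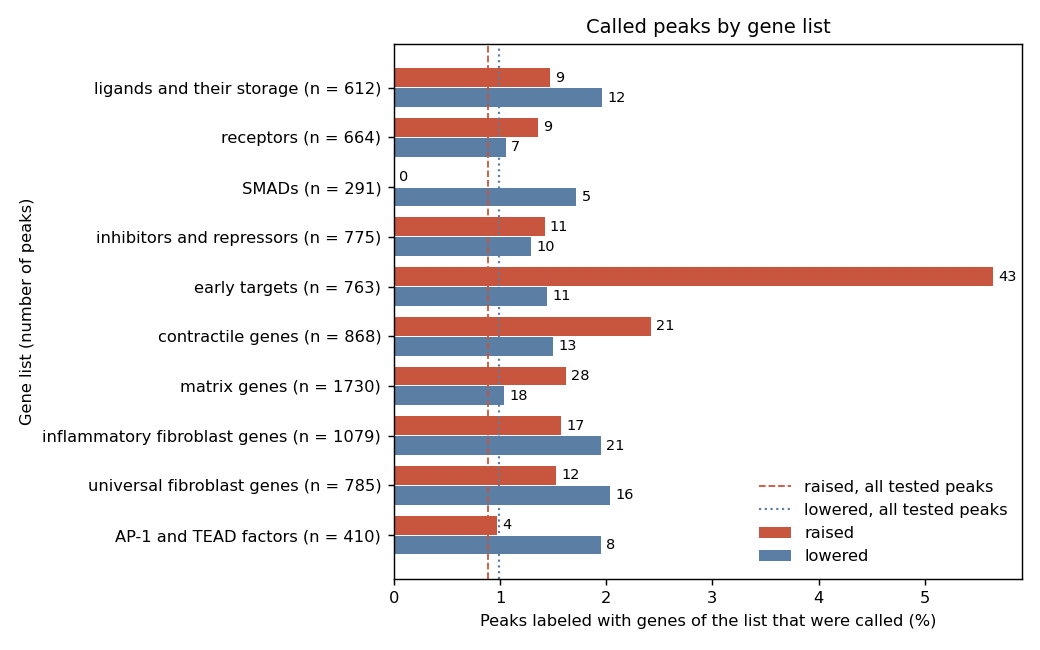
Share of tested peaks (percent) labelled with the genes of each of 10 lists that were raised or lowered under all 3 scalings, with the share of all tested peaks as vertical lines and the number of called peaks beside each bar. Early targets stand out with 5.64% raised against 0.885% of all tested peaks.

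Inflammatory fibroblast genes had 17 raised (1.58%) and 21 lowered (1.95%) of 1079 peaks, beside 0.885% raised and 0.988% lowered of all tested peaks, and 11 raised without TGF-β1 replicate 2. CXCL1, a neutrophil chemokine, and CCL2, a monocyte chemokine, were lowered at their start sites. CXCL1 had 6.75, 5.55, 6.02 and 6.59 per Mb against 11.4, 11.8, 12.0 and 10.9 (-0.84 ± 0.16, adjusted p = 9.35e-05), and CCL2 had 5.94, 8.19, 7.60 and 6.18 against 14.3, 11.5, 14.2 and 13.1 (-0.89 ± 0.16, adjusted p = 2.14e-05). At both, TGF-β1 was below every unstimulated library, and the TNF means were 33.8 and 27.4 per Mb. The CXCL1 peak 3.44 kb from the start fell further, to 2.35 ± 0.746 from 8.83 ± 0.279 (-1.75 ± 0.19, adjusted p = 5.00e-14), where the IL-17A mean was 21.4. PTGS2, the inducible prostaglandin synthase, had 3 lowered and no raised of 24. Among them was a peak over an exon, 0.107 kb from the nearest annotated transcript start (0.905 ± 0.218 against 3.08 ± 0.338, -1.36 ± 0.31, adjusted p = 0.00108).

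The start-site peaks of MMP10, a matrix metalloproteinase, and ETV4, an ETS-family factor, were raised. MMP10 had 12.0, 13.3, 11.5 and 7.86 per Mb against 5.48, 4.93, 5.19 and 6.35 (0.95 ± 0.21, adjusted p = 0.000714), and ETV4 had 17.2, 23.6, 13.9 and 14.3 against 11.5, 12.0, 6.98 and 6.49 (0.88 ± 0.19, adjusted p = 0.000649). ETV4 had the most raised peaks of the inflammatory list (4 of 38) and CXCL1 the most lowered (5 of 46, with 2 raised). Genes of universal fibroblasts had 12 raised (1.53%) and 16 lowered (2.04%) of 785 peaks, beside 0.885% raised and 0.988% lowered of all tested peaks. Over the omissions of 1 library the list had 8 to 12 raised and 7 to 15 lowered, with 9 raised and 7 lowered without unstimulated replicate 1. In the full data 7 of the 16 lowered peaks were at ADAMTS9, a further proteoglycan-cleaving protease. KLF4, a zinc finger factor, had 3 raised and 3 lowered of 217. The ADAMTS9 start-site peak had 12.1, 12.1, 9.40 and 7.80 against 21.7, 21.8, 22.3 and 17.5 (-0.99 ± 0.15, adjusted p = 1.25e-07). Genes for AP-1 and TEAD factors had 4 raised (0.976%) and 8 lowered (1.95%) of 410 peaks, beside 0.885% raised and 0.988% lowered of all tested peaks. With 1 library left out they had 2 to 4 raised and 4 to 9 lowered, and 4 of each without unstimulated replicate 3. TEAD1, a DNA-binding partner of YAP, had 2 of each of 110, with the largest gain in a distal peak (9.76 ± 1.92 against 3.33 ± 0.496, 1.41 ± 0.26, adjusted p = 2.71e-05).

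Raised and lowered peaks differed in sequence. The AP-1 string TGANTCA occurred in 60.4% of raised, 19.7% of lowered and 25.7% of all tested peaks (either strand, peaks of 500 bases). The SMAD palindrome GTCTAGAC was rare but unevenly spread, in 101 raised peaks (2.80%), 4 lowered peaks (0.0995%) and 0.342% of all. The single SMAD element CTGTCTGG occurred in 7.88%, 2.46% and 3.26%, and the CAGA box AGCCAGACA, which SMAD3 and SMAD4 bind, in 2.00%, 0.696% and 1.00%. The string of RUNX factors, TGTGGTT, occurred in 21.0% of raised, 9.35% of lowered and 10.9% of all tested peaks. TEAD strings (ACATTCC) were about equally frequent in raised (13.1%) and lowered (12.6%) peaks and in 8.65% of all, and the CArG box of SRF occurred in 4.14%, 3.88% and 3.21%.

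Lowered peaks held other strings more often. The FOX string TGTTTAC occurred in 16.8% of lowered, 8.05% of raised and 8.38% of all tested peaks, and the C/EBP string TTGCNNAA in 36.4%, 24.1% and 25.8%. The E-box CAGATG, bound by TWIST factors, occurred in 42.7% of lowered, 36.2% of raised and 34.7% of all tested peaks, and the SP and KLF string GGGGCGGGG in 4.53%, 0.971% and 3.42%. The other 14 motifs are in the plot of motif shares. Among tested peaks with coverage of at least 1 per Mb AP-1 occurred in 61.9% of raised, 19.7% of lowered and 30.0% of all such peaks, and FOX in 8.02%, 16.9% and 8.72%. The SP and KLF string occurred there in 0.965%, 4.57% and 5.98%, so that lowered peaks held it less often than all such peaks. When each library was left out in turn, AP-1 in raised peaks lay between 59.97% and 62.1%, and FOX in lowered peaks between 16.5% and 17.6%. These strings can overlap one another and other motifs, and a match describes the letters, not binding.

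**Figure D4:**
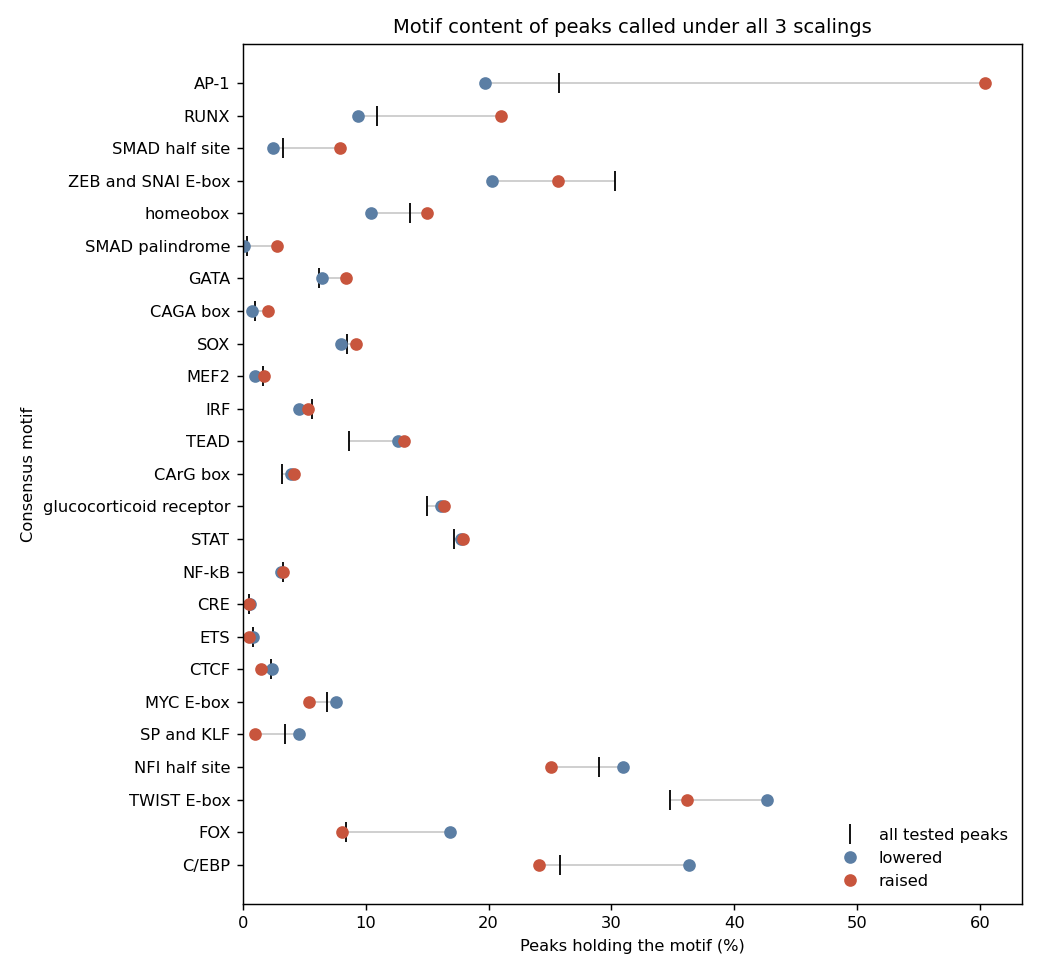
Share (percent) of raised, lowered and all tested peaks that hold each of 25 consensus motifs on either strand (red points raised, blue points lowered, black ticks all tested peaks). AP-1, the SMAD strings and RUNX are more frequent in raised peaks, FOX and C/EBP in lowered peaks.

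Read the other way, of the 393 tested peaks that hold both the SMAD palindrome and the AP-1 string 15.0% were raised, of 1001 with the palindrome and no AP-1 string 4.20%, of 104354 with AP-1 and no palindrome 2.03%, and of 301426 with neither 0.459%. In the same order their median coverage was 1.31, 0.918, 1.02 and 0.819 per Mb, and the part of coverage in these shares was not tested. Peaks with both AP-1 and RUNX strings were raised in 3.67% and lowered in 0.618%. Peaks with FOX and no AP-1 string were lowered in 2.21% and raised in 0.541%. The strings also separated the libraries over all peaks that hold them, called or not. The mean log2 coverage of peaks with the palindrome exceeded that of all tested peaks by 0.23, 0.23, 0.23 and 0.21 in the TGF-β1 libraries and by 0.03, 0.02, 0.03 and 0.03 in the unstimulated ones. For AP-1 this excess was 0.24, 0.21, 0.21 and 0.20 against 0.16, 0.15, 0.16 and 0.15. For FOX it was 0.02, 0.01, 0.02 and 0.02 against 0.05, 0.06, 0.06 and 0.05. The groups did not overlap for these 3 strings, with trimmed-mean scaling or loess offsets. Over the 25 motifs this was so for 21 with trimmed-mean scaling and for 9 with loess offsets.

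The AP-1 string also lay nearer to the middle of raised peaks. Of AP-1 matches in raised peaks 55.8% were within 50 bases of the peak center, against 37.4% in lowered peaks and 50.1% in peaks that were not called. RUNX matches were within that distance in 36.3%, 20.6% and 28.0%. FOX matches had the opposite order, 20.9% in raised, 29.1% in lowered and 23.5% in other peaks, and C/EBP matches 20.5%, 25.7% and 23.8%.

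**Figure D5:**
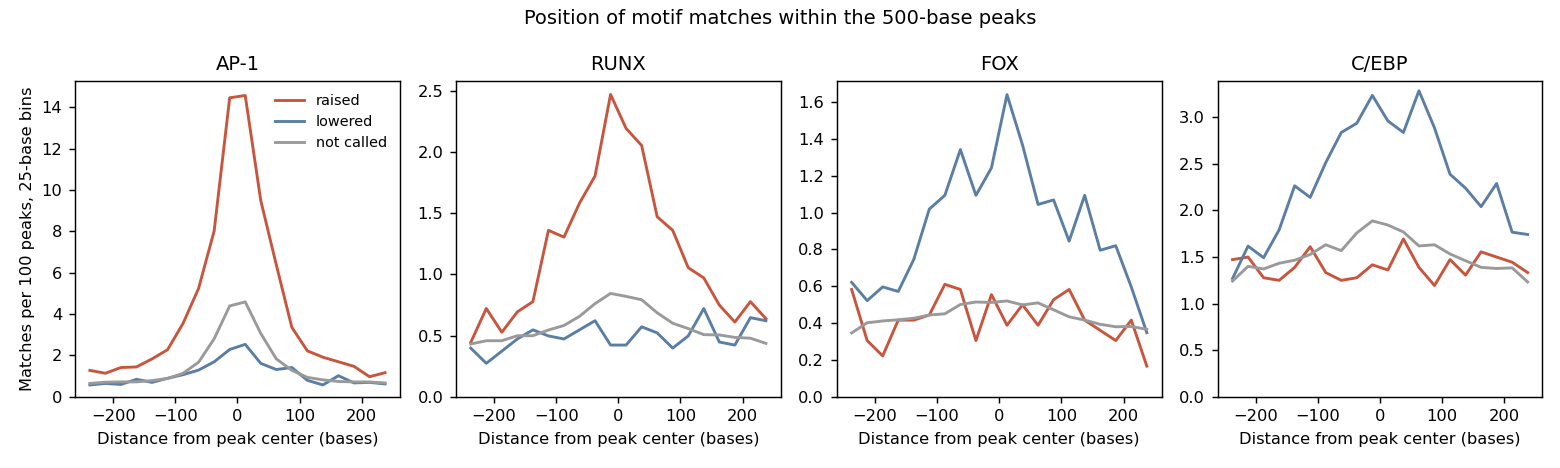
Motif matches per 100 peaks in bins of 25 bases, by distance from the peak center (bases), in raised, lowered and not called peaks. AP-1 and RUNX matches gather at the center of raised peaks, with 55.8% and 36.3% within 50 bases, and FOX matches are more central in lowered peaks (29.1%).

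The same 4 TGF-β1 libraries were also set against the mean of the 9 other cytokine groups, a reference that holds no unstimulated library. Under all 3 scalings 5194 peaks were higher with TGF-β1 (1.28%) and 6620 lower (1.63%). The comparisons share the TGF-β1 libraries, so the values are given side by side. For the intronic TGFB2 peak the change was 2.10 against unstimulated cells and 2.45 against the other cytokines, and for the TGFBI peak 2.18 and 1.99. For INHBA the values were 1.40 and 0.79, and for ZNF254 2.66 and 1.86. For TTC23L they were -2.65 and -2.56, for the exonic ADAMTS1 peak with the largest loss -1.97 and -1.88, and for CXCL1 3.44 kb from its start -1.75 and -2.10.

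Markers of cell types were read at gene starts. The start-site peaks of 9 of 10 fibroblast markers (COL1A1, PDGFRB and TWIST2 among them) summed to 92.6 to 109 per Mb in TGF-β1 and 119 to 136 in unstimulated libraries. The 5 leukocyte markers and 4 of the 6 epithelial markers (CDH1, KRT20, CDX2 and VIL1) had no tested peak at their start. The other 2 epithelial markers, EPCAM and KRT8, summed to 4.71 to 8.98 per Mb with TGF-β1 and 5.94 to 8.03 without. Endothelial markers summed to 3.86 to 5.30 against 2.47 to 7.18. Those of glia and neurons gave 2.49 to 4.14 against 2.24 to 4.89, and those of smooth muscle 16.4 to 19.4 against 23.3 to 28.7. Most of the smooth muscle sum was ACTG2, a smooth muscle actin, at a mean of 16.0 against 23.4 per Mb, while DES and MYH11 had means of at most 1.63. The fibroblast and smooth muscle sums did not overlap between the groups, and the median change of all start-site peaks was -0.27 on the same scale. No marker's start-site peak was called under all 3 scalings, and the part of these sums in the results was not tested. In a bulk population, fewer cells with an open site and less opening per cell cannot be told apart.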

How the data were processed

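ATAC-seq was measured in 44 libraries (11 groups of 4). The authors aligned reads to hg38 and, per the labels' processing notes, used MACS2. The deposited values are signal, namely the sum of per-base read coverage in each peak (407383 peaks), unscaled. Peak coordinates, gene labels and classes are those of the deposited table, and all 407383 peaks lay inside the hg38 chromosomes. Overlap with genes and distance to start sites came from GENCODE 44. A gene label need not be the gene a peak lies in. Coverage sums are not counts, so a count model was not used. The study's methods describe consensus peaks built from MACS2 calls and filtered for low abundance; whether the deposited peaks, each of 500 bases, come from that step is not given in the sources used here. Coverage follows whole reads (most often 75 bases at the low end), not the transposase cut.

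Coverage was divided by the library total in Mb and a trimmed-mean factor (30% of log ratios, 5% of means), 0.5 was added and log2 taken. Peaks with a log2 mean of -3 or below were left out (209). limma 3.58.1 (R 4.3.3) was fitted on all 44 libraries with group as the only term and a mean-variance trend, with Benjamini-Hochberg adjustment over 407174 peaks. The other scalings were library totals and loess offsets (span 0.3). The 10 raised and 10 lowered peaks with the largest change were named among those called under all 3 scalings with a mean of at least 1 per Mb and groups that did not overlap, 1 per gene label. The 6 labels with the most raised and with the most lowered peaks, the 3 longest runs each way, and, of 10 lists (182 genes, 1 without a label and 2 matched by an older label), genes with a called start-site peak (within 1 kb) and with the most called peaks were named. Other genes were named after their values were seen, among them TGFB2, INHBA, IL11, PTGS2, SRF, ACVR1, SMAD9, ADAM12, GALNT15, BDKRB2, ENTPD1, BANF2, CDC42EP3 and the genes given as not called. The members and lists were chosen with earlier results of these data known, and the CAGA box was added to the 24 other motifs after the data were seen. Some items these rules select are not reported here. The fits were tested on simulated data of well-covered peaks, with no trend between the groups along coverage. That test therefore does not bear on peaks with low coverage or on the choice of scaling. Python 3.11.15, pandas 2.3.3 and numpy 2.4.6 were used. Intervals for depth are not given, since coverage has no molecular identifiers.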

Additional observations from a re-analysis of the deposited data

Results flagged for a closer look

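Of 48 groups of 4 libraries checked with Dixon's test at the 95% level, 3 held a library that stood apart from the others, and chance gives about 1 in 20. At the raised ITGB1 peak TGF-β1 replicate 1 had 8.74 per Mb against 3.96, 4.77 and 4.73 (ratio 0.830). At the raised TNFSF4 peak the same library had 14.0 against 8.68, 8.93 and 9.37 (ratio 0.870). At the lowered SACM1L peak, in an intron of LIMD1, TGF-β1 replicate 2 had 2.62 against 1.76, 1.82 and 1.86 (ratio 0.884). At each peak the library lay on the same side of all unstimulated libraries as its group, and what sets it apart was not tested.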

How the results depend on the processing

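With trimmed-mean scaling 16180 peaks were called, 4487 raised and 11693 lowered. Library totals gave 6985 and 7629, median-of-ratios factors 8421 and 5949, and loess offsets 10669 in all with 4349 lowered. Of alternatives added after seeing the data, factors from peaks covered in every library gave 8067 and 6206, and loess offsets on the 8 libraries alone 7567 and 5269. The median change over all peaks was 0.05 with the trimmed mean, 0.12 with library totals, 0.16 with median-of-ratios factors and -0.01 with loess offsets. Pseudocounts of 0.1 and 2, other filters, quality weights, GC correction and the 8 libraries alone kept all 3 counts within 1.5 times. Without 1 library at a time the calls lay between 11295 and 14678, 3033 to 3942 raised and 8078 to 10789 lowered, and the peaks called under all 3 scalings between 2400 and 3260 raised and 2959 and 3736 lowered. The fewest raised, 2400, were left without TGF-β1 replicate 1. With a pseudocount of 0.1 (79.7%) and with GC correction (79.8%) fewer of the 3603 raised peaks were still called.

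The replicate number as a block gave 16782 calls (4634 raised, 12148 lowered), and 38396 against the other cytokines (10854 and 27542). Same-numbered libraries deviated together only weakly (r between 0.0017 and 0.0325, the highest for replicate 4), so the numbers were not taken as pairs. Differently numbered libraries had r between -0.0130 and 0.0047. TGF-β1 against the other cytokines gave 37708 calls (10643 higher, 27065 lower), library totals 20546 and 14656, and loess offsets 17195 in all with 7684 lower. Without 1 TGF-β1 library at a time 6391 to 7154 were higher, and without the shallow library labelled IL-6 replicate 4 11859. Over 307 called peaks at the named genes and 21 alternatives, 6119 of 6437 values kept direction and call, 318 lost the call and 0 changed direction. Library totals and loess offsets were among these alternatives. The peaks were chosen as called under both, so those values were fixed beforehand. With 1 library at a time left out, 92 of the 307 peaks lost the call at least once. The 20 peaks chosen by their change kept direction and call throughout. Calls were rare among peaks with low coverage, and the part of depth in this was not tested.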
